A study of Mus musculus with 23 samples.

Results

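The transcriptome of cancer-associated fibroblasts (CAFs) sorted from EO771 tumors was set against that of whole EO771 tumors. EO771.LMB, called EO771 here, is a breast carcinoma line of C57BL/6 origin. The members were chosen by label: 2 libraries labelled EO771 CAF and 3 libraries labelled EO771 whole tumor, which are 5 of the 23 libraries of the series. All came from tumors that grew after 500000 cells were injected under the skin of the flank of adult female C57BL/6 mice, with no drug treatment. For whole tumors, RNA was taken from a fragment of the excised tumor. For CAFs, tumors were digested to single cells, cells carrying CD45, a surface protein of leukocytes, were removed on magnetic beads, and live FAP+ cells were sorted from the remaining CD45- fraction. FAP was the only marker of the sort, and no marker was stated to exclude cancer cells or endothelial cells. The sources do not state whether a CAF library pools several tumors or whether it shares a tumor with any whole tumor library. The 2 CAF libraries come from separate sorts, so the spread between them also holds the spread between sorts.

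CAFs are the mesenchymal cells of the tumor stroma. They secrete and crosslink collagen and other extracellular matrix (ECM), and they signal to cancer and immune cells through growth factors, chemokines and complement. Commonly described states are the contractile, matrix-producing myofibroblast (myCAF), the cytokine-producing inflammatory fibroblast (iCAF), the antigen-presenting fibroblast that carries MHC class II (apCAF), and the adventitial or universal fibroblast marked by Pi16 and Dpp4.

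The tumor table held read counts and the CAF table held RPKM, reads scaled by transcript length and library size, so tumor counts were turned into RPKM from the transcript lengths and column sums. Column sums over transcripts were 35736161.5, 22098721 and 21684212 reads in the tumors. The smallest steps of the CAF values, if each is 1 read, correspond to about 41500000 and 40100000 reads. If the steps are 0.5 reads, as in the tumor counts, the depth is lower. A gene was compared if 2 or more of the 5 libraries held 1 RPKM or more, and across the 12215 genes compared Pearson's r of log2(RPKM + 1) was 0.9944 between the CAF libraries, 0.9919 to 0.9941 between tumors, and 0.8782 to 0.8897 between a CAF library and a tumor. These r values are across genes and describe the libraries. Because the tables were normalized apart, no test was run between them. The median gene was 0.41 higher on the log2 scale in CAFs, and this shift was subtracted to give the relative difference used throughout, so the median over all compared genes is 0. Differences were taken on log2(RPKM + 1), so a relative difference of 1 is 2-fold only well above 1 RPKM and a larger fold at low levels. Fold thresholds named below are on this scale. A gene was called higher or lower when both CAF libraries lay beyond all 3 tumors after the shift and the relative difference reached 1 in size. By this rule 998 genes were called higher in CAFs (8.17% of those compared) and 513 were called lower (4.2%). These 2 percents are the background for the list counts below. The split depends on the scaling: higher calls were 66.0% of calls here, 83.8% with no shift (1778 higher and 343 lower), and 52.3% with every library rescaled to the same sum (1066 and 972).

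The sort marker was high in both CAF libraries. Fap, the serine protease FAP itself (chr2:62500936-62574021, minus strand, mm10), stood at 6.47 and 7.16 RPKM in the CAF libraries and 0.173, 0.186 and 0.345 RPKM in the tumors. Both CAF libraries lay above every tumor, with a relative difference of 2.25. Ptprc, which encodes CD45 (chr1:138062859-138175305, minus strand, mm10), stood at 0.953 and 0.89 RPKM in the CAF libraries and 6.07, 7.7 and 7.75 RPKM in the tumors. All 3 tumors lay above both CAF libraries, with a relative difference of -2.5. Of 29 compared genes of a fibroblast identity list, 24 were called higher in CAFs and 0 lower, against the 8.17% and 4.2% of all genes, and the median relative difference was 2.66. Dcn, a collagen-binding proteoglycan, stood at 275 and 307 RPKM in the CAF libraries and 5.43, 11.5 and 21.7 RPKM in the tumors. Pdgfra, a receptor for platelet-derived growth factor, stood at 31 and 29.4 RPKM in CAFs and 6.49, 7.46 and 8.88 RPKM in tumors. For both genes the groups did not overlap, and relative to their level the tumors spread more than the CAF libraries did. The 5 members not called, Fbln2 and S100a4 among them, stood above 10 RPKM in every tumor. Of the other 3, Vim, the intermediate filament vimentin, stood at 1698 and 1848 against 918, 839 and 894 RPKM, Ddr2, a collagen receptor, at 22.6 and 19.6 against 13.8, 15.7 and 15.8 RPKM, and Twist2, a mesenchymal transcription factor, at 69.6 and 69.9 against 32.5, 35.9 and 35.2 RPKM.

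Leukocyte transcripts were lower in the CAF libraries and still measurable. Of 18 compared genes of a general leukocyte list, 16 were called lower and 0 higher, with a median relative difference of -2.19. The list summed to 189.6 and 219 RPKM in the CAF libraries and to 396, 378 and 375 RPKM in the tumors. Most of the CAF sums was 1 member that was not called, Arhgdib, at 138 and 162 RPKM in CAFs and 144, 103 and 124 RPKM in tumors. The sums thus say little about the other members. Of 23 macrophage and monocyte genes, 20 were called lower, with a median of -2.43, and the list summed to 412 and 503 RPKM in the CAF libraries against 1933, 2076 and 1875 RPKM in the tumors. Csf1r, the receptor that macrophages need for survival, stood at 5.45 and 5.15 RPKM in CAFs and 20.6, 22.7 and 23.6 RPKM in tumors. C1qa, a chain of complement C1q that macrophages make, stood at 44 and 58.4 RPKM in CAFs and 253, 285 and 251 RPKM in tumors. By rank C1qa averaged 87.7 in CAFs and 99.4 in tumors, which is under the 20 points of the rank rule. Without the shift, the median macrophage gene kept 21.1% of its tumor level in the CAF libraries and the median leukocyte gene 20.5%. In bulk RNA, fewer cells of a type and less RNA per cell cannot be told apart. T cell transcripts were nearer to 0: Cd3g, a chain of the T cell receptor complex, stood at 0 and 0.049 RPKM in CAFs and 1.23, 2.12 and 1.93 RPKM in tumors, and Cd3e at 0.017 and 0.035 RPKM in CAFs and 0.736, 1.14 and 1.6 RPKM in tumors. Of 13 compared T, NK and B cell genes 11 were called lower. Hbb-bs, a hemoglobin chain of red blood cells, which were lysed before the sort, stood at 0 and 0.079 RPKM in CAFs and 8.92, 4.75 and 6.0 RPKM in tumors.

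Endothelial genes were near their whole tumor level in the CAF libraries. Of 19 compared endothelial genes, 0 were called higher and 1 lower, with a median relative difference of -0.42. Cdh5, the junction protein VE-cadherin, stood at 13.4 and 14.3 RPKM in CAFs and 14, 16 and 15.6 RPKM in tumors. Kdr, the main receptor for VEGF, stood at 2.1 and 2.18 RPKM in CAFs and 1.59, 1.82 and 2.08 RPKM in tumors. The CAF libraries lay within or just beside the tumors for both genes, and only Cldn5, a tight junction protein, was called, at 6.56 and 5.76 against 10.1, 13.6 and 11.1 RPKM, a call lost with no shift. The list summed to 183 and 187 RPKM in the CAF libraries and 159, 196 and 179 RPKM in the tumors. The part of endothelial RNA in the results below was not tested. Of 15 pericyte and smooth muscle genes 4 were called higher, against 8.17% of all genes. Among them was Rgs5, a pericyte regulator of G-protein signalling, at 22.8 and 29.8 against 5.63, 6.03 and 6.59 RPKM. The channel genes Kcnj8 and Abcc9 were not called.

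**Figure D1:**
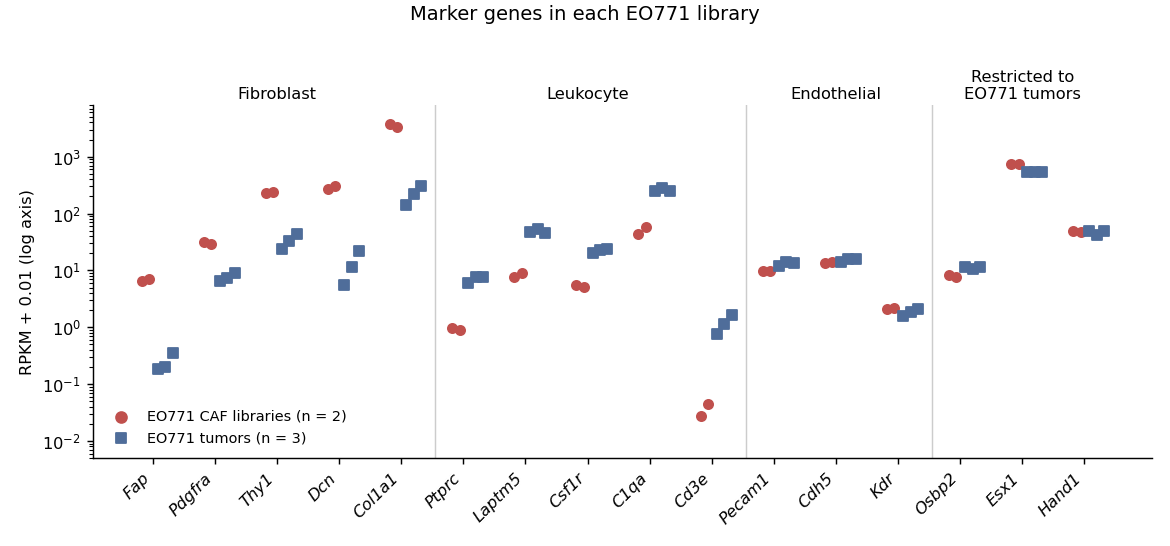
RPKM plus 0.01 on a log axis for marker genes in each EO771 library, with circles for the 2 CAF libraries and squares for the 3 tumors. The fibroblast genes lie above the tumors in both CAF libraries and the leukocyte genes below, while the endothelial genes and the 3 genes restricted to EO771 tumors lie at about the same level in both groups.

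Transcripts that stood far higher in EO771 tumors than in B16, LL2, MC38 and Pan02 were present in the EO771 CAF libraries at about the whole tumor level. Genes with a mean of at least 10 RPKM in EO771 tumors and at most 1 RPKM in every tumor of B16, LL2, MC38 and Pan02 and in every LL2, MC38 and Pan02 CAF library numbered 1. This was Osbp2, an oxysterol-binding protein gene, at 8.4 and 7.78 RPKM in CAFs and 11.3, 10.5 and 11.7 RPKM in tumors, or 75.3 and 69.8% of the mean tumor level. The rule does not use the EO771 CAF values. Limits of 5 and 1 RPKM found 5 genes, with a median of 106% of the tumor level over genes, and limits of 20 and 0.5 RPKM found none. A ratio rule added after seeing the data found 24 genes. It asked for at least 5 RPKM in every EO771 tumor. The mean also had to be at least 5 times the highest value in any library of B16, LL2, MC38 or Pan02. All 24 stood at 50% of the tumor level or more in the CAF libraries, with a range of 61.8% to 157% and a median of 101%, or 76.1% once the shift between the tables is taken out.

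Esx1, a homeobox gene of the X chromosome known from placenta and testis (chrX:137115397-137120326, mm10), stood at 734 and 743 RPKM in CAFs and 536, 534 and 533 RPKM in tumors. No library of B16, LL2, MC38 or Pan02 held more than 27.2 RPKM. Hand1, a transcription factor of trophoblast and heart, stood at 49.3 and 46.5 RPKM in CAFs and 49.5, 41.6 and 50.2 RPKM in tumors. The CAF values lay above all tumors for Esx1 and inside the range of the tumors for Hand1. Aqp3, an epithelial water and glycerol channel, stood at 65.9 and 55.3 RPKM in CAFs and 41.4, 52.9 and 62.7 RPKM in tumors. Plet1, a surface protein of placental and epithelial progenitors, stood at 47.8 and 49.2 RPKM in CAFs and 51.6, 41.5 and 50.5 RPKM in tumors. Both genes overlapped between the groups. Sohlh2, a germ cell transcription factor, stood at 9.22 and 9.62 RPKM in CAFs and 7.17, 7.04 and 6.45 RPKM in tumors, and Piwil2, a germ cell RNA-binding protein, at 6.93 and 6.51 RPKM in CAFs and 5.97, 6.23 and 6.77 RPKM in tumors. Vgf, a secreted neuropeptide precursor, stood at 59.8 and 59.6 RPKM in CAFs and 50.9, 46.4 and 37.8 RPKM in tumors, and both CAF libraries lay above the lowest tumor for all 3 genes. The lowest share belonged to Chit1, a chitinase, at 9.62 and 10.3 RPKM in CAFs and 10.6, 16 and 21.7 RPKM in tumors. Krt8, a keratin of simple epithelia that LL2 and Pan02 libraries also carried, stood at 492 and 495 RPKM in CAFs and 362, 356 and 372 RPKM in tumors. Of 10 compared epithelial and mammary genes none was called in either direction. That count is too small to set apart from the 8.17% and 4.2% of all genes called higher and lower. Of the 24 restricted genes only Chit1 was called in either direction, also a count too small to set apart from those shares. Chit1 had a relative difference of -1.0, a call lost when any of 3 libraries was left out (without tumor replicate 3 it was -0.77). The ratio rule gave 3 genes for LL2, 12 for MC38 and 38 for Pan02. Their medians in the CAF libraries of their own model were 133%, 109.7% and 145% of the tumor level. With each model's shift taken out these were 97.8%, 87.4% and 92.1%. Genes at 50% or more without the shift numbered 3, 11 and 33, and the lowest genes stood at 79.2%, 13.9% and 0.11%. Whether these transcripts came from cancer cells in the FAP+ gate, from free RNA or from the fibroblasts was not tested. MC38 tumor replicate 1 also carried the EO771-restricted genes, at 4.07% to 13.7% of their EO771 tumor level and with the highest value outside EO771 for 13 of the 24, while the medians of the other libraries of other models were 0.20% to 2.81%. Krt8 read 17.8 RPKM in that library and 1.33 and 0.924 RPKM in the other MC38 tumors.

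**Figure D2:**
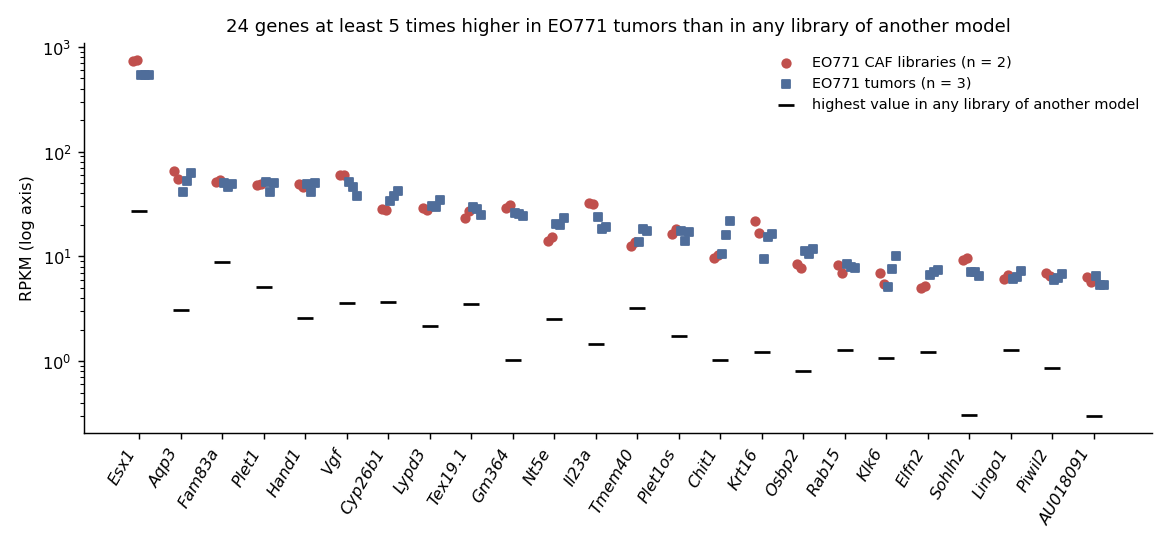
RPKM on a log axis for the 24 genes of the ratio rule in each EO771 CAF library (circles) and EO771 tumor (squares). A dash marks the highest value in any library of B16, LL2, MC38 or Pan02. Circles and squares lie side by side for every gene, all above the dash.

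Many of the genes with the largest relative differences share sequence with other genes. As a measure of this, the share of 32-base words of a gene's transcripts that also occur in transcripts of other genes was computed. The 15 genes highest in CAFs held 10 with over 30% shared words, among them Gapdh, an enzyme of glycolysis, at 1351 and 1353 RPKM in CAFs and 10.1, 7.75 and 7.88 RPKM in tumors, Ppia, the chaperone cyclophilin A, at 312 and 349.5 RPKM in CAFs and 0.94, 0.745 and 0.886 RPKM in tumors, and Rps12, a ribosomal protein, at 679 and 725 RPKM in CAFs and 3.59, 4.13 and 4.25 RPKM in tumors. For these genes the tumors read far below the CAF libraries, and the same held in the other models: Gapdh read 672, 733 and 497 RPKM in LL2, MC38 and Pan02 CAFs on average and 7.77, 8.04 and 3.68 RPKM in their tumors. Of 85 compared ribosomal protein genes 71 were called higher in CAFs, with a median of 2.26 and a median of 60.2% shared words. Over 30% shared words went with 19.2% of genes called higher and 6.27% lower, against 7.41% and 4.7% of genes with none. The pseudogenes Rpl14-ps1 and Rplp2-ps1 and the small RNA Mir682 were among the 15 lowest, at 11.6 and 12.1 against 345, 298 and 299.6 RPKM, 11.5 and 15.2 against 302, 261 and 259.9 RPKM and 12.4 and 12.3 against 471, 407 and 427 RPKM. Whether reads that fit several genes were counted alike in the 2 tables was not tested, so values of genes with shared words are uncertain. Of the other genes named here, Hbb-bs, Twist2, Krt8, Loxl2, Timp3, C4b, Ly6c1, Sox4, Hoxb2, Fosl1, Hspb1 and Ldha also had over 30% shared words.

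With genes of at least 10% shared words left out, a choice made after seeing the data, and the shift over all genes kept, 624 of 9130 genes were called higher (6.83%) and 354 lower (3.88%). Their leading genes in CAFs were secreted and matrix proteins and early response factors. Pi16, a peptidase inhibitor that marks adventitial fibroblasts, stood at 263 and 257 RPKM in CAFs and 1.61, 0.799 and 4.57 RPKM in tumors. Clec3b, the plasminogen-binding protein tetranectin, stood at 138 and 149 RPKM in CAFs and 1.05, 0.206 and 0.981 RPKM in tumors. Ptx3, a soluble pattern recognition protein, stood at 85.1 and 153 RPKM in CAFs and 0.256, 0.212 and 1.15 RPKM in tumors. For each of the 3 genes both CAF libraries lay far above all tumors. Cxcl1, Fosb, Sfrp4, Fos, Efemp1, Saa3, Has1, Dpt, Col14a1, Wisp2 and Cxcl12 were also among the 15 furthest above the tumors, with relative differences from 4.31 for Cxcl12 to 5.99 for Cxcl1. At the other end stood Alb, serum albumin, at 0.838 and 0.537 RPKM in CAFs and 26.8, 26 and 23 RPKM in tumors, and Apoa1, the main protein of high-density lipoprotein, at 0.393 and 0.407 RPKM in CAFs and 12.1, 10.6 and 10.4 RPKM in tumors. Alb lay between 23 and 74.3 RPKM in every tumor of the series and between 0.469 and 0.838 RPKM in every CAF library. The leukocyte genes Mpeg1, Cd74, Ctss, Adgre1, Cybb and Clec4n and the MHC class II genes H2-Aa, H2-Eb1 and H2-Ab1 followed, along with the small RNA genes Mir7001, Mir6236 and Mir5107. Mpeg1, a pore-forming protein of macrophages, stood at 3.03 and 2.9 RPKM in CAFs and 28.5, 37.2 and 25.5 RPKM in tumors, and Ctss, a lysosomal protease of antigen-presenting cells, at 28.7 and 38.3 RPKM in CAFs and 184, 233 and 184 RPKM in tumors.

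**Figure D3:**
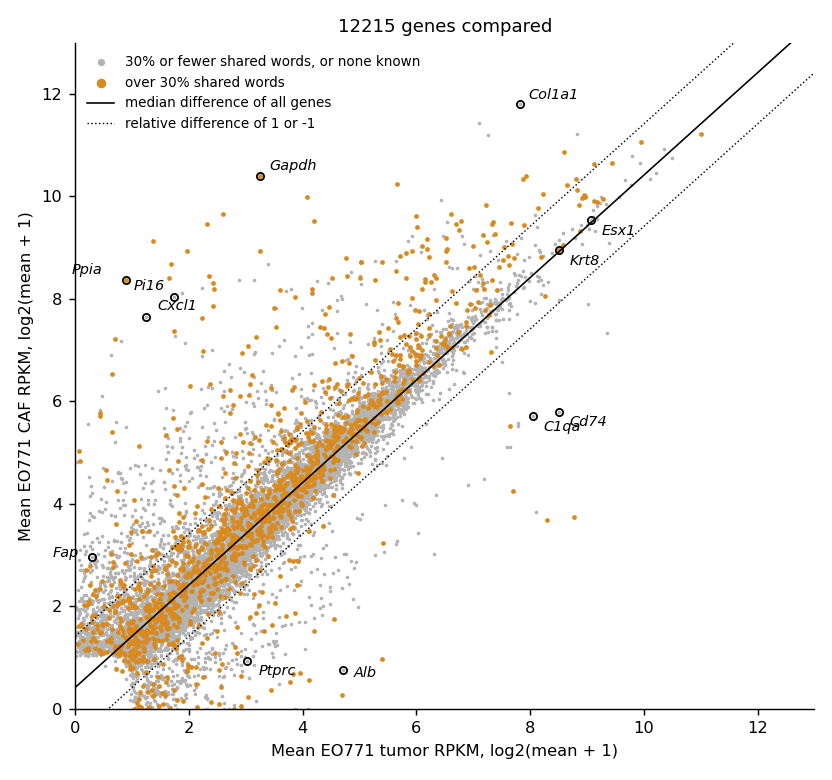
Mean RPKM of the 2 CAF libraries against that of the 3 tumors for the 12215 compared genes, both as log2(mean + 1), with genes of over 30% shared words in orange. The solid line marks the median difference and the dotted lines a relative difference of 1 either way. Gapdh and Ppia stand far above the lines with many other orange points, Col1a1, Pi16, Cxcl1 and Fap stand above them, Alb, Cd74, C1qa and Ptprc stand below, and Krt8 and Esx1 lie between.

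Fibrillar collagens, the load-bearing fibers of the stroma, were higher in CAFs. Of 10 compared genes 7 were called higher and none lower, with a median relative difference of 1.57. Col1a1 and Col1a2, the chains of collagen I, stood at 3773 and 3362 RPKM in CAFs and 144, 225 and 305 RPKM in tumors, and at 2474 and 2229.9 RPKM in CAFs and 98.1, 148 and 210.3 RPKM in tumors. Col3a1, the chain of collagen III, stood at 2827 and 2692 RPKM in CAFs and 89.4, 116 and 203 RPKM in tumors. The CAF libraries agreed closely, whereas tumor replicate 1 was the lowest and replicate 3 the highest of the tumors for all 3 genes. As a percentile rank within the library, from 0 to 100, Col1a1 averaged 100 in CAFs and 99 in tumors, so it was near the top of both groups and not called by a rule of 20 rank points. The minor chains Col5a1 and Col5a2 had relative differences of 1.55 and 3.09, and Col2a1, Col11a1 and Col24a1 were not called at levels up to 4.07 RPKM. Of 17 other collagens 12 were called higher. Col14a1, which sits on collagen fibrils, was the furthest apart at 48.9 and 46.5 RPKM in CAFs and 0.503, 0.608 and 0.815 RPKM in tumors. Col6a1, Col6a2 and Col6a3, the chains of the microfibril-forming collagen VI, had relative differences of 1.5, 2.04 and 1.26. The basement membrane genes Col4a1, Col4a2 and Col18a1 were not called, with relative differences of 0.12, 0.35 and 0.03. Of 23 collagen processing genes 12 were called higher. Among them were lysyl oxidases, which crosslink collagen: Lox stood at 114 and 127 RPKM in CAFs and 6.5, 6.87 and 10.2 RPKM in tumors, Loxl1, Loxl2 and Loxl3 had relative differences of 2.97, 2.67 and 2.47, and Loxl4 was not called at 13.5 and 11.8 against 9.72, 10.0 and 10.3 RPKM. The hydroxylase genes P4ha1, P4ha2, Plod1, Plod2 and Plod3 were not called either, with relative differences of 0.42 to 0.94, whereas P4ha3 was called higher at 43.7 and 44.6 against 2.88, 3.52 and 4.68 RPKM.

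Matrix glycoproteins and proteoglycans followed the collagens, with 37 of 50 compared genes called higher, 0 lower and a median of 2.5. Efemp1, an elastic fiber protein of the fibulin family, stood at 54.2 and 57.7 RPKM in CAFs and 0.332, 0.224 and 0.524 RPKM in tumors. Fn1, fibronectin, stood at 417 and 322 RPKM in CAFs and 22, 25.3 and 36.7 RPKM in tumors. Postn, periostin, which binds collagen and integrins, stood at 801 and 652 RPKM in CAFs and 49.5, 90.4 and 137 RPKM in tumors. No tumor reached the lower of the 2 CAF values in any of these genes. Has1, a hyaluronan synthase, stood at 36.2 and 56.2 RPKM in CAFs and 0.0403, 0.0977 and 0.354 RPKM in tumors, and Bgn, a small leucine-rich proteoglycan, at 953 and 995 RPKM in CAFs and 59, 90.7 and 107 RPKM in tumors. Members that were high in both groups and were not called included Spp1, osteopontin, at 667 and 712 against 429, 439.5 and 556 RPKM, and Tgfbi, which is induced by TGF-beta, at 207 and 209.8 against 199, 205 and 248 RPKM. Of 29 matrix proteases and inhibitors 16 were called higher and 1 lower. Mmp2, a gelatinase, stood at 256 and 245 RPKM in CAFs and 13.9, 22.9 and 33.5 RPKM in tumors. Mmp3, a stromelysin, stood at 111 and 134 RPKM in CAFs and 5.97, 12 and 12.2 RPKM in tumors. The inhibitor Timp3 was called higher with a relative difference of 2.76, while Timp2 was not, with 0.40. Mmp12, the macrophage elastase, was the member called lower, at 4.84 and 4.98 RPKM in CAFs and 29.3, 27.1 and 23 RPKM in tumors. Mmp13, a collagenase, was split between the CAF libraries, at 54.1 and 23.8 RPKM in CAFs and 31.2, 32.5 and 43.8 RPKM in tumors. Of 20 integrin and laminin genes 5 were called higher, against 8.17% of all genes. Among them were Itga11, a collagen-binding integrin chain, at 6.15 and 4.92 against 0.188, 0.272 and 0.23 RPKM, and Lamb2 with a relative difference of 2.44.

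Genes of several CAF states were higher in the same libraries. Of 26 compared iCAF genes 21 were called higher and 1 lower, and their median relative difference of 3.52 was the highest of the lists. Cxcl12, the ligand of CXCR4, stood at 55.2 and 89.7 RPKM in CAFs and 1.28, 1.51 and 2.45 RPKM in tumors. Il6, interleukin 6, stood at 7.18 and 16.5 RPKM in CAFs and 0.273, 0.168 and 0.107 RPKM in tumors. Saa3, an acute-phase protein, stood at 225 and 437 RPKM in CAFs and 4.5, 3.84 and 15.2 RPKM in tumors. CAF replicate 2 was above CAF replicate 1 in all 3 genes, and both were above every tumor. Only the CAFs went through digestion and sorting, and the part of handling in the iCAF values was not tested. Of 18 universal fibroblast genes 15 were called higher and none lower, with a median of 2.8. Ly6c1 stood at 114 and 131 RPKM in CAFs and 6.56, 5.78 and 7.61 RPKM in tumors, Cd34 at 84.2 and 91.5 RPKM in CAFs and 6.73, 7.98 and 8.79 RPKM in tumors, and Dpp4 at 7.21 and 7.59 RPKM in CAFs and 0.555, 0.492 and 0.656 RPKM in tumors. Of 20 myCAF genes 12 were called higher, with a median of 1.8. Acta2, smooth muscle actin, stood at 157 and 159.6 RPKM in CAFs and 13.7, 16.6 and 20.3 RPKM in tumors. Cthrc1, a secreted regulator of collagen deposition, stood at 93.9 and 98 RPKM in CAFs and 4.72, 3.63 and 7.07 RPKM in tumors. Lrrc15, a membrane protein of myofibroblasts, stood at 73.5 and 56.9 RPKM in CAFs and 11.5, 16.6 and 17.9 RPKM in tumors. Tpm1, Igfbp3 and Tgfb1 of the same list were not called, with relative differences of 0.37, -0.75 and -0.31. These lists share members with each other and with the matrix lists, so their counts are not separate.

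Of 12 compared apCAF genes 8 were called lower, and the 1 called higher was Saa3. H2-Aa, a chain of MHC class II, stood at 17.9 and 24.9 RPKM in CAFs and 133, 176 and 126 RPKM in tumors. Cd74, the invariant chain that escorts MHC class II, stood at 46.2 and 62.9 RPKM in CAFs and 343, 432 and 308 RPKM in tumors. Ciita, the activator of MHC class II transcription, stood at 0.094 and 0.106 RPKM in CAFs and 1.03, 2.01 and 1.18 RPKM in tumors. All 3 genes were lower in both CAF libraries than in any tumor. Macrophage genes had a like difference, with relative differences of -2.76 for C1qa and -2.3 for Csf1r against -3.12 for H2-Aa, and the part of macrophage RNA in the MHC class II values was not tested. The mesothelial genes Msln and Slpi, which the apCAF list also holds, were not called, at 3.91 and 3.39 against 2.91, 2.65 and 4.42 RPKM and 22.9 and 25.2 against 17.2, 12.6 and 13.9 RPKM.

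**Figure D4:**
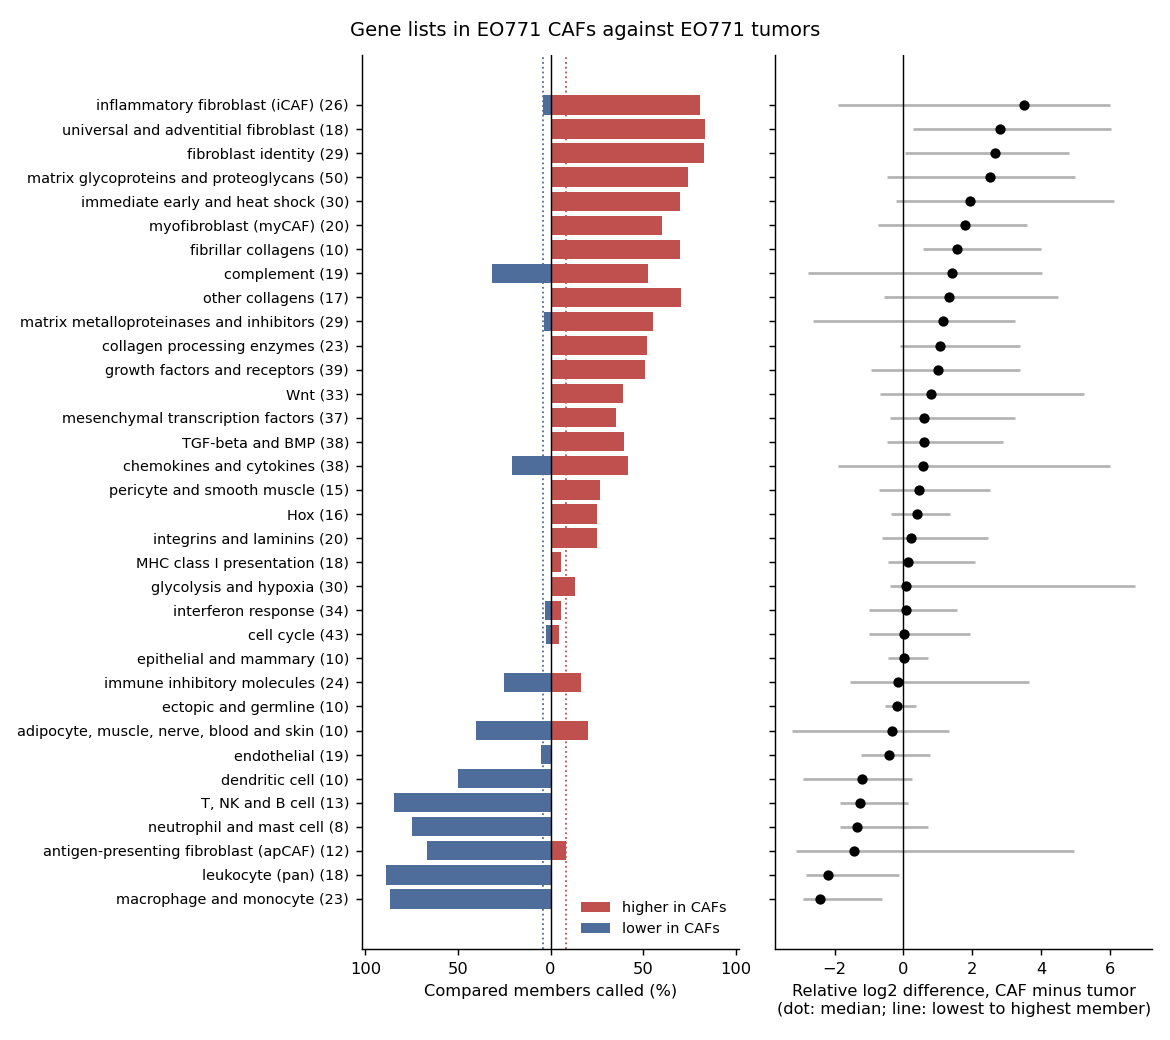
For each gene list, with the number of compared members in brackets, the left panel shows the percent of members called higher (right) or lower (left) in CAFs, with dotted lines at the percents of all compared genes, and the right panel shows the median relative log2 difference (dot) and its range over members (line). The iCAF, fibroblast identity and matrix glycoprotein lists lie near the top with most members called higher, and the leukocyte and macrophage lists lie at the bottom with most members called lower.

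Chemokines and cytokines were divided by gene. Of 38 compared members 16 were called higher and 8 lower. Cxcl1, which draws neutrophils, stood at 169 and 230.2 RPKM in CAFs and 1.19, 0.984 and 1.96 RPKM in tumors. Cxcl14 stood at 104 and 129 RPKM in CAFs and 4.3, 1.7 and 5.17 RPKM in tumors. Ccl11, which draws eosinophils, stood at 61.9 and 86.5 RPKM in CAFs and 3.76, 2.71 and 4.51 RPKM in tumors. Il33, an alarmin of stromal nuclei, stood at 34.5 and 54.5 RPKM in CAFs and 0.864, 0.519 and 1.17 RPKM in tumors, and Ccl2, which draws monocytes, at 124 and 159 RPKM in CAFs and 23.5, 21.4 and 37.5 RPKM in tumors. No tumor reached a CAF value in these genes. The genes called lower were Ccl5, Ccl6, Ccl8, Ccl9, Ccl22, Cxcl16, Il1b and Il1rn, with relative differences from -1.91 to -1.54. Ccl8 was the most abundant of them at 57.5 and 83.6 RPKM in CAFs and 172, 199.7 and 221 RPKM in tumors. The macrophage list, with its median of -2.43, was lower in the same libraries, and its part in these 8 values was not tested. Complement divided in the same manner, with 10 of 19 compared genes called higher and 6 lower. C3, the central component, stood at 286 and 282 RPKM in CAFs and 13.8, 10.0 and 12.5 RPKM in tumors. C4b stood at 75.1 and 79.4 RPKM in CAFs and 3.06, 2.91 and 3.14 RPKM in tumors, and Serping1, the inhibitor of C1, at 207 and 246 RPKM in CAFs and 7.56, 10.6 and 13.4 RPKM in tumors. The 3 C1q chains, the properdin gene Cfp and the receptors C3ar1 and C5ar1, all known from myeloid cells, were the members called lower, with relative differences from -2.76 to -2.03. The median of the complement list was 1.41 over all compared members and -1.39 over the 12 with under 10% shared words. Of 24 immune inhibitory genes 4 were called higher and 6 lower, against 8.17% and 4.2% of all genes. Ptgs2, the inducible cyclooxygenase, stood at 17.3 and 21.4 RPKM in CAFs and 0.267, 0.142 and 0.249 RPKM in tumors, Cd274, which encodes PD-L1, was not called at 1.95 and 2.21 against 2.75, 2.71 and 2.48 RPKM, and Havcr2, which encodes TIM-3, was called lower at 0.613 and 0.561 against 2.63, 2.35 and 2.45 RPKM.

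In 3 lists of signalling genes, members were called higher more often than the 8.17% of all genes and none was called lower: 20 of 39 growth factors and receptors, 15 of 38 TGF-beta and BMP genes and 13 of 33 Wnt genes. Among ligands, Vegfd, a lymphatic growth factor, stood at 11.1 and 16.8 RPKM in CAFs and 0.391, 0.454 and 0.499 RPKM in tumors, and Fgf7, which acts on epithelium, at 3.87 and 6.63 RPKM in CAFs and 0.0735, 0.11 and 0.156 RPKM in tumors. Wnt2 stood at 7.15 and 5.8 RPKM in CAFs and 0.0929, 0.0429 and 0.0219 RPKM in tumors. All 3 stood under 0.5 RPKM in every tumor and were clearly measured in both CAF libraries. Vegfa and Pdgfa, ligands of endothelium and mesenchyme, were high in both groups and not called, at 55.4 and 55.9 against 33.5, 29.8 and 32.7 RPKM and 105 and 119 against 92, 97.7 and 91.3 RPKM. Among receptors, Pdgfrb had a relative difference of 1.43, Tgfbr2 of 2.2 and Fzd1 of 2.08. Met, the receptor of hepatocyte growth factor, was not called at 6.09 and 6.12 against 8.84, 9.5 and 9.37 RPKM. Among secreted modulators, Sfrp4, a Wnt antagonist, stood at 63.5 and 72.8 RPKM in CAFs and 0.408, 0.0776 and 0.672 RPKM in tumors. Igfbp5, a binding protein of insulin-like growth factors, stood at 25.4 and 21 RPKM in CAFs and 0.613, 0.58 and 0.974 RPKM in tumors. Fst, which binds activin, stood at 23.2 and 25.1 RPKM in CAFs and 1.43, 1.98 and 2.08 RPKM in tumors. Of the target genes, Id3 was called higher with a relative difference of 2.9, while Smad7 and Axin2 were not, with 0.60 and 0.82.

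Of 37 mesenchymal transcription factors 13 were called higher and none lower. Osr1, a factor of connective tissue progenitors, stood at 15.1 and 17.2 RPKM in CAFs and 0.328, 0.293 and 0.471 RPKM in tumors. Ebf1, a factor of fibroblasts and B cells, stood at 7.16 and 7.49 RPKM in CAFs and 0.443, 0.503 and 0.665 RPKM in tumors. Sox4 stood at 26.3 and 22.6 RPKM in CAFs and 1.4, 2.46 and 2.51 RPKM in tumors. Prrx1, a limb and stroma factor, was measured in tumors too, at 37.7 and 36.4 RPKM in CAFs and 11.4, 12.1 and 11.6 RPKM in tumors. The groups did not overlap in these 4 genes. Snai1, Zeb1 and Zeb2, which repress epithelial genes, were at similar levels in both groups and were not called, with relative differences of 0.13, 0.06 and -0.20. Of 16 compared Hox genes 4 were called higher, against 8.17% of all genes: Hoxb2, Hoxc8, Hoxc9 and Hoxc10. Hoxc10 was the highest of them at 6.6 and 6.48 RPKM in CAFs and 1.22, 1.07 and 1.41 RPKM in tumors. Without tumor replicate 1 Hoxb2 was at 0.88 and was not called. Hoxd8, Hoxd9 and Hoxd10 were at similar levels in both groups, with relative differences of 0.48, -0.37 and -0.22.

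Immediate early and heat shock genes, which respond within minutes to stress, serum and tissue digestion, were higher in the CAF libraries. Of 30 genes 21 were called higher and none lower, with a median of 1.94. Fos stood at 339 and 316 RPKM in CAFs and 5.02, 5.35 and 8.62 RPKM in tumors. Fosb stood at 283 and 268 RPKM in CAFs and 2.83, 2.35 and 2.85 RPKM in tumors. Hspb1, a small heat shock protein, stood at 94.1 and 90.3 RPKM in CAFs and 0.748, 0.529 and 0.411 RPKM in tumors. No tumor came near a CAF value in these 3 genes. Jun stood at 632 and 572 RPKM in CAFs and 56.6, 66 and 56.3 RPKM in tumors, and Hspa1a, an inducible chaperone with 69.9% shared words, at 153 and 142 RPKM in CAFs and 0.916, 0.704 and 0.256 RPKM in tumors. Fosl1, Ier3 and Egr3 were high in tumors too and were not called, with relative differences of -0.21, 0.56 and -0.19. Of the 2 groups, only the CAFs went through digestion and sorting, so the effects of handling and of cell type cannot be told apart. The same holds for the iCAF and the chemokine and cytokine genes above.

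Of 43 compared cell cycle genes 2 were called higher and 1 lower, against 8.17% and 4.2% of all genes. Their median relative difference was 0.02, a sign that turned under 9 of the other settings. Mki67, a marker of cycling cells, stood at 4.82 and 4.28 RPKM in CAFs and 3.72, 3.63 and 4.08 RPKM in tumors. Top2a, the topoisomerase of dividing cells, stood at 30.9 and 29.7 RPKM in CAFs and 29.3, 27.4 and 26.2 RPKM in tumors. The groups lay close together in both genes. The inhibitors Cdkn1c and Cdkn2b were the members called higher, at 8.59 and 7.01 RPKM in CAFs and 0.687, 0.725 and 0.75 RPKM in tumors and at 4.86 and 3.79 RPKM in CAFs and 0.554, 0.586 and 0.564 RPKM in tumors, and the cyclin gene Ccnd2 was called lower at 45.6 and 46.6 against 62.9, 73.8 and 75.1 RPKM, a call at the threshold that was lost when any of 4 libraries was left out, with relative differences of -0.99 to -0.96. Of 30 glycolysis and hypoxia genes 4 were called higher, and these were Gapdh, Pgk1, Pgam1 and Eno1, with 84%, 68.3%, 42.1% and 77% shared words. Ldha, lactate dehydrogenase, and Slc2a1, the main glucose transporter, were not called, at 942 and 1024 against 661, 573 and 622 RPKM and 173 and 173 against 179, 149.6 and 154 RPKM. Of 34 interferon response genes 2 were called higher and 1 lower, against the same shares of all genes. Their median was 0.06 and fell below 0 with libraries rescaled to the same sum. Of 18 MHC class I genes 1 was called higher, against 8.17% of all genes. Counts this small do not set the cell cycle, interferon and MHC class I lists apart from all genes. Irf1, an interferon-induced transcription factor, stood at 53.2 and 61 RPKM in CAFs and 13, 15.1 and 13.1 RPKM in tumors, and B2m, the light chain of MHC class I, at 698 and 812 RPKM in CAFs and 610.2, 597 and 527 RPKM in tumors. The CAF libraries lay above all tumors for Irf1, with a relative difference of 1.56, whereas B2m was not called, with -0.03.

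Promoters were searched for 4 short motifs, as a description of the called genes. RefSeq promoters of GRCm38.p6, from 250 bases before to 50 after the start, were matched to 9068 of the 12215 compared genes. TATAAA, the TATA box, occurred on either strand in 12.9% of promoters of genes called higher and 14.8% of those called lower, against 6.83% of all. TGANTCA, the site of AP-1 factors such as Fos and Jun, occurred in 7.01% of the promoters of genes called higher, 12.8% of those called lower and 5.11% of all. With only called genes of under 10% shared words these were 5.28% for higher and 10.6% for lower, so the share for higher was near that of all genes. CACGTG occurred in 8.72%, 4.71% and 10.5%, and GGAATG in 13.6%, 11.4% and 11.4%. TGANTCA and CACGTG read the same on both strands, and none of the 4 motifs contains another. The promoters of Pi16, the gene furthest above the tumors with few shared words, C1qb, a macrophage gene called lower, and Esx1, the most abundant gene restricted to EO771 tumors, are shown 5′ to 3′ on their own strand, with motif matches in capitals. They lie at chr17:29318632-29318931, chr4:136886151-136886450 and chrX:137120277-137120576.
Pi16: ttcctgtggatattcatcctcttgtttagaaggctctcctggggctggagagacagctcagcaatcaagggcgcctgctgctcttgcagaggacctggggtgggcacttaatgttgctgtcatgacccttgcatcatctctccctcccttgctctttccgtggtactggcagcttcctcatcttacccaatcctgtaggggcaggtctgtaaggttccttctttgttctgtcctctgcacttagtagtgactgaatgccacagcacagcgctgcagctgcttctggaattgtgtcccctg
C1qb: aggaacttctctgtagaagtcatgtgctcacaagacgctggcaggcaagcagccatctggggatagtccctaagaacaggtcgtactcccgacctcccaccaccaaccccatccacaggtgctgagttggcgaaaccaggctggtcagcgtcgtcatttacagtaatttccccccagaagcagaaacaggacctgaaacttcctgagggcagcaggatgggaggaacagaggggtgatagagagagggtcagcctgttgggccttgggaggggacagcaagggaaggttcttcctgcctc
Esx1: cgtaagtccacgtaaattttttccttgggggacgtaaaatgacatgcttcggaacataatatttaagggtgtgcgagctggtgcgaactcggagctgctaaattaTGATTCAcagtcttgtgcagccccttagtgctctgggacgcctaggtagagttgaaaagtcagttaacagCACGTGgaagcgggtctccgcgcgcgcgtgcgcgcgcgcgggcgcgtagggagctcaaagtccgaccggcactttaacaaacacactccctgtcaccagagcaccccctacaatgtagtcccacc
The Pi16 and C1qb windows held none of the 4 motifs, and the Esx1 window held TGANTCA as TGATTCA and CACGTG.

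The CAF-to-tumor difference in EO771 was tested against the mean of LL2, MC38 and Pan02, models of lung, colon and pancreatic carcinoma. Each model had 2 CAF libraries and 3 tumors. A pass is a departure from that mean and need not hold against each of the 3 models. The tested contrast was the EO771 CAFs minus the mean of the other 3 CAF groups, less the same difference among tumors, on log2(RPKM + 1). Each part lies within 1 table, so an offset of a gene between the tables that is constant on this scale cancels. A scale factor between the tables cancels only in part for values near or below 1 RPKM. By limma, 603 of 14275 genes had a higher CAF-to-tumor difference in EO771 (4.22%) and 114 a lower one (0.799%) at an adjusted p under 0.05 and a contrast of at least 1. The counts rest on both CAF libraries: without EO771 CAF replicate 1 they were 307 and 94, without replicate 2 they were 247 and 74, and the lone library was then assumed to vary like the other groups. Without MC38 tumor replicate 1, which carried EO771-restricted transcripts, they were 554 and 114.

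Macrophage genes led the contrast. Of 25 tested macrophage genes 18 had a higher difference in EO771 and 0 a lower one. C1qa averaged 51.2 RPKM in EO771 CAFs and 0.744, 0.979 and 4.31 RPKM in LL2, MC38 and Pan02 CAFs, against 263 RPKM in EO771 tumors and 273, 286 and 569.9 RPKM in the other tumors. The contrast of C1qa was 4.64 ± 0.60 (SE, limma adjusted p = 0.000383). C1qb had a contrast of 4.44 ± 0.50 (SE, limma adjusted p = 0.000193). That of C1qc was 4.47 ± 0.57 (SE, limma adjusted p = 0.000356). Lyz2, a lysozyme of myeloid cells with 31.7% shared words, and Ccl6, a myeloid chemokine, had contrasts of 4.48 ± 0.65 and 4.73 ± 1.0 (SE, limma adjusted p = 0.000785 and 0.00622). Without CAF replicate 2 Ccl6 no longer passed (limma adjusted p = 0.0605), while C1qa, C1qb, C1qc and Lyz2 passed without each EO771 library in turn. The median macrophage gene kept 21.1% of the tumor level in EO771 CAFs, against 0.49, 1.49 and 1.59% in LL2, MC38 and Pan02 CAFs. Ptprc averaged 0.922 RPKM in EO771 CAFs and 0.019, 0.045 and 0.090 RPKM in the other CAFs, and its contrast of 1.01 ± 0.44 did not pass (limma adjusted p = 0.122). Of 18 general leukocyte genes 8 were called higher.

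Inflammatory and universal fibroblast genes were called in the same direction. Of 26 iCAF genes 17 and of 19 universal fibroblast genes 11 had a higher difference in EO771, against 4.22% of all genes. Saa3 averaged 331 RPKM in EO771 CAFs and 173, 143 and 6.33 RPKM in LL2, MC38 and Pan02 CAFs, against 7.86 and 83.3, 21.1 and 29.6 RPKM in the tumors. The contrast of Saa3 was 4.51 ± 1.02 (SE, limma adjusted p = 0.0092). Cxcl1 averaged 199.8 RPKM and 196, 41.9 and 27.6 RPKM in the same CAFs, against 1.38 and 124, 18.1 and 1.25 RPKM in the tumors. Cxcl1 had a contrast of 4.25 ± 0.87 (SE, limma adjusted p = 0.00556). The contrast of Cxcl1 thus joins CAF levels that were near those of LL2 with tumor levels below those of LL2 and MC38. That of Clec3b was 4.45 ± 1.07 (SE, limma adjusted p = 0.0121). The contrast of Ptx3 was 4.39 ± 0.75 (SE, limma adjusted p = 0.00195). Pi16 had a contrast of 4.04 ± 0.94 (SE, limma adjusted p = 0.0107). Fhl1, a muscle and fibroblast LIM protein outside the lists, had a contrast of 4.26 ± 1.11 (SE, limma adjusted p = 0.0179), with 15.9 RPKM in EO771 CAFs and 0.69 RPKM in EO771 tumors. Without CAF replicate 1 Clec3b, Pi16 and Fhl1 no longer passed (limma adjusted p = 0.0592, 0.0579 and 0.082), and without CAF replicate 2 neither these nor Saa3 did (limma adjusted p = 0.0713, 0.0631, 0.086 and 0.0784). For each of the 10 genes with the highest contrast, the CAF-to-tumor difference of EO771 lay above that of all 3 other models. These genes were chosen by their distance from the mean of those models, so this describes them and is no separate evidence. The macrophage list moved in the same contrast, and its part in the fibroblast values was not tested.

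Of 29 fibroblast identity genes 15 had a higher difference in EO771 and 0 a lower one. Pdpn, podoplanin, averaged 61.2 RPKM in EO771 CAFs and 29.6, 22.9 and 8.37 RPKM in LL2, MC38 and Pan02 CAFs, against 7.76 RPKM in EO771 tumors and 14.6, 14.3 and 16 RPKM in the other tumors, with a contrast of 2.63 ± 0.50 (SE, limma adjusted p = 0.00352). That of Dcn was 2.46 ± 0.55 (SE, limma adjusted p = 0.00866). Without CAF replicate 2 Dcn did not pass (limma adjusted p = 0.0626). Fap and Col1a1 did not pass, with contrasts of 0.97 ± 0.38 and 2.53 ± 0.85 (SE, limma adjusted p = 0.0932 and 0.0514). Of 20 myCAF genes 3 were called higher and of 22 endothelial genes 2, against 4.22% of all genes. Within each model's own comparison, the median relative difference of the fibroblast identity list was 2.66 for EO771, 1.98 for LL2, 1.39 for MC38 and -0.34 for Pan02, and that of the iCAF list was 3.52, 0.98, 0.74 and -0.11. The EO771-restricted gene Esx1 and the keratin gene Krt8 did not pass, with contrasts of 1.08 ± 0.67 and 0.70 ± 0.73 (SE, limma adjusted p = 0.279 and 0.538).

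The genes with the most negative contrasts were smaller in size. Wnt10b, a ligand of adipose and mammary tissue, averaged 12.7 RPKM in EO771 CAFs and 10.7 RPKM in EO771 tumors, against 2.25, 10.8 and 24.7 RPKM in LL2, MC38 and Pan02 CAFs and 0.255, 0.941 and 4.22 RPKM in their tumors. The contrast of Wnt10b was -1.83 ± 0.29 (SE, limma adjusted p = 0.00126). Dnajb1, a cochaperone of heat shock proteins, averaged 84.7 RPKM in EO771 CAFs and 301, 58.2 and 259 RPKM in the others, against 26.6 RPKM in EO771 tumors and 19.07, 30.2 and 13.7 RPKM in the other tumors, with a contrast of -1.31 ± 0.31 (SE, limma adjusted p = 0.0119). For Dnajb1 the CAFs and tumors of MC38 lay closer together than those of EO771, so its contrast holds against the mean of the models only. Trp53i11, a membrane protein gene induced by p53, had a contrast of -1.59 ± 0.45 (SE, limma adjusted p = 0.027). The other 7 of the 10 lowest were Pisd-ps1, Mir7001, Lars2, Snhg20, Rn45s, Snord22 and Mir678, with contrasts from -2.01 to -1.34. Of the 10, only Pisd-ps1, Wnt10b and Snhg20 passed without each EO771 library in turn, and without CAF replicate 1 the adjusted p by limma was 0.0638 for Dnajb1 and 0.0837 for Trp53i11. Pisd-ps1, Snhg20, Rn45s and Lars2 were high in MC38 CAFs, at 327, 343, 1445 and 220.3 RPKM.

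**Figure D5:**
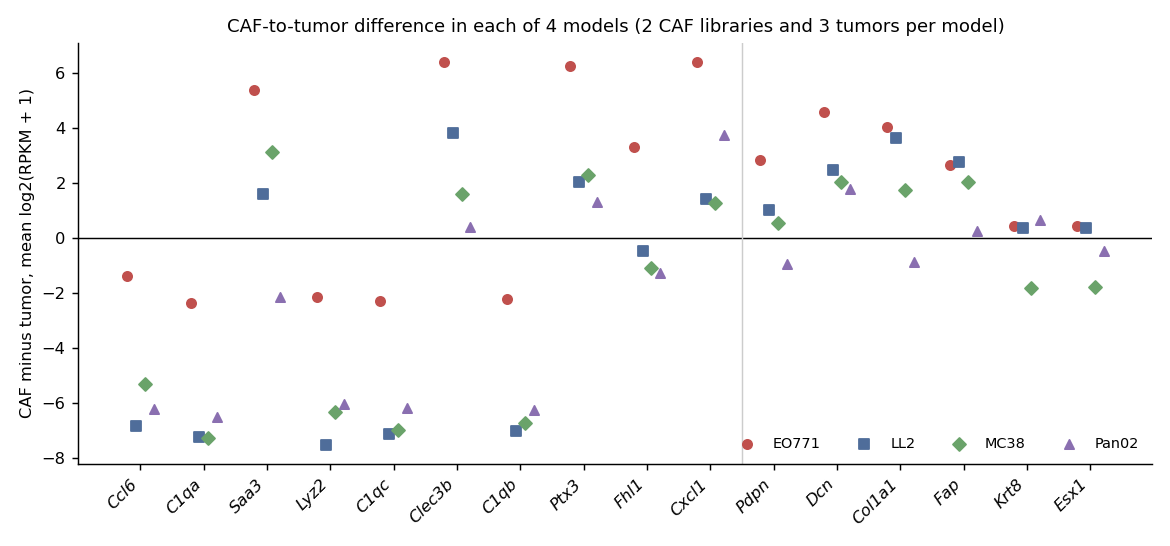
Difference between the mean log2(RPKM + 1) of CAFs and tumors, without a shift, for the 10 genes with the highest contrast (left of the line) and 6 others, with 1 marker per model. EO771 lies above LL2, MC38 and Pan02 for each of the 10 genes, is near LL2 for Fap and Col1a1, and is near LL2 for Krt8 and Esx1.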

How the data were processed

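Poly(A) RNA of tumor fragments and of sorted CAFs was sequenced without strand. Per the submitters' processing notes, reads were aligned to mm10 with STAR 2.5.0c and counted per RefSeq transcript with HOMER. The deposited tumor table holds expected counts in steps of 0.5, made by the authors by counting over exons on both strands, with no scaling. The deposited CAF table holds RPKM, scaled by the authors, and how they counted the library size is not given in the sources used here. The 40458 transcripts were matched by ID, and each of 24940 symbols kept the transcript with the largest mean tumor count, which is the only transcript for 69.4% of symbols. The highest share of counts in 2 transcripts that name no gene was 4.06e-05%. In total 5 columns of another model were not used. Tumor RPKM were computed from transcript length and column sum. With a CAF step taken as 1 read, 3 reads on a 1 kb transcript correspond to 0.0724 to 0.138 RPKM (counting error only).

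Differences between CAFs and tumors used log2(RPKM + 1) and no test, and the RPKM floor of 1 in 2 libraries also governs which list members were compared. The contrast between models was fitted with limma 3.58.1 in R 4.3.3 on 12 tumors and 8 CAF libraries, with a variance trend and Benjamini-Hochberg adjustment. Nothing in the labels says that replicates came from separate animals, so p-values measure the spread between these samples, which may be technical. Both the calls and the fit were tested on simulated data. Of 200 planted 4-fold differences 200 were called, with 21 false calls among 11653 genes. Of 100 planted contrasts of 2 and 100 of 3 on the log2 scale all were found, with 4 false. For the contrasts, counts were drawn with a fixed dispersion of 0.05 that was not fitted to these libraries. Col1a1, with a contrast of 2.53 ± 0.85 (SE), did not pass in the data. This recovery therefore does not carry over to genes that spread more. The contrasts were planted in well-expressed genes only. Sizes at the thresholds used here were not planted, so their recovery is not known.

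Named genes are Fap, Ptprc, the 15 largest differences each way among called genes with at least 10 RPKM in the higher group, the 10 largest contrasts each way, restricted genes, and members of the lists with high levels or large differences; some genes are not reported here. The members and lists were chosen with earlier results of these data known. Alternatives covered scaling, pseudocount, filter, transcript choice, threshold, libraries left out and a replicate block.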

Additional observations from a re-analysis of the deposited data

Results flagged for a closer look

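Each gene here was picked out because its CAF-to-tumor difference in EO771 departed from the mean of LL2, MC38 and Pan02 by limma at an adjusted p under 0.05 with a contrast of at least 1 on the log2 scale. Among macrophage and myeloid genes the contrasts were 4.73 for Ccl6, 4.64 for C1qa, 4.48 for Lyz2, 4.47 for C1qc and 4.44 for C1qb. Among fibroblast and inflammatory genes they were 4.51 for Saa3, 4.45 for Clec3b, 4.39 for Ptx3, 4.25 for Cxcl1, 4.04 for Pi16, 2.63 for Pdpn and 2.46 for Dcn, and Fhl1 had 4.26. The negative contrasts were -2.01 for Pisd-ps1, -1.83 for Mir7001, -1.83 for Wnt10b, -1.77 for Lars2, -1.63 for Snhg20, -1.61 for Rn45s, -1.59 for Trp53i11, -1.34 for Snord22, -1.34 for Mir678 and -1.31 for Dnajb1. Of these genes 13 no longer passed without at least 1 of the EO771 libraries.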

How the results depend on the processing

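Against 998 genes called higher and 513 lower in CAFs, the higher calls numbered 1778 with no shift, 372 at a 4-fold threshold, 4429 with no fold threshold and 645 when genes with at least 10% shared words were left out and the shift was estimated again (0.39 in place of 0.41 on the log2 scale). The lower calls numbered 972 with libraries rescaled to the same sum, 226 with a filter of 5 RPKM, 158 at the 4-fold threshold and 4384 with no fold threshold. Higher calls were 66.0% of calls, 77.0% with the 5 RPKM filter and 76.4% with no filter. Leaving out 1 EO771 library gave 741 to 1034 higher and 480 to 525 lower calls. For the contrast between models, 603 higher and 114 lower calls became 964 and 325 with a pseudocount of 0.1, 1152 and 1373 with no fold threshold, 488 and 74 over genes with under 10% shared words, and 247 to 554 higher and 74 to 114 lower calls with 1 library left out. With the replicate number as a block (replicate block) they were 608 and 113. The deviations of same-numbered EO771 CAF and tumor libraries correlated at -0.121 and -0.0822 across genes. With 2 CAF libraries these values are not independent, and whether the numbers mark shared tumors cannot be told from them. Restricted genes numbered 1 in the rule as set, 5 with limits of 5 and 1 RPKM (median 105.7% of the tumor level), 0 with 20 and 0.5 RPKM, and 24 with the ratio rule added after seeing the data (median 101.47%). Of the named genes no called direction reversed, and 3 lost their CAF against tumor call without 1 library. Causes of these shifts were not tested beyond the number of genes or libraries in each setting. The depth behind CAF values is inferred from their steps, and 2 CAF libraries cannot show how CAFs vary between animals.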
